A study of Homo sapiens with 3 samples.

Results

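Heterochromatin protein 1 (HP1) and the enzymes that write and keep the methyl mark on lysine 9 of histone H3 (H3K9) were followed as 10 genes in YB5 cells after decitabine, carboplatin or the combination. The genes were the HP1 readers CBX5, CBX1 and CBX3, the H3K9 methyltransferases SUV39H1, SUV39H2, SETDB1 and EHMT2, the co-repressor TRIM28 and the histone deacetylases HDAC1 and HDAC2. Members were taken by the gene name printed beside each probe in the scanner files, which gave 18 of 41000 gene probes and 10 of 18611 genes measured. YB5 was cloned from the colon cancer line SW48. It carries 1 copy of a GFP reporter that is silent, with a heavily methylated CMV promoter. RNA of treated cells (green, Cy3) was set against RNA of control cells given DMSO (red, Cy5) on Agilent whole-genome arrays read in both colours, with 1 array for each treatment. The 3 treatments were decitabine at 25 nM, carboplatin at 20 μM, and the 2 drugs at these same doses. Cells were dosed 4 times, on days 1 to 4, and harvested on day 6. No array had its dyes exchanged, so that any preference of a probe for a dye is contained in every change given here. Each treatment has 1 array, and therefore no replicate error, no test and no p-value can be given.

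HP1 proteins bind methylated H3K9 through their chromodomain and recruit further silencing factors through a chromoshadow domain. SUV39H1 and SUV39H2 place the trimethyl mark at pericentromeric repeats, SETDB1 places it where TRIM28 and zinc finger proteins bring it, and EHMT2 (G9a) is the main enzyme for the dimethyl mark in euchromatin. HDAC1 and HDAC2 remove the acetyl groups that would otherwise block methylation of that lysine. Silenced promoters in cancer cells commonly carry H3K9 methylation together with DNA methylation, and the study asked what becomes of HP1 in YB5 cells under the 2 drugs.

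Changes are given as log2 of treated divided by control signal, after background correction and loess normalization within the array. A gene was called changed at 1.5-fold, the threshold of the study. A gene with several probes was represented by its brightest one, and the other probes are given beside it for the 10 genes and for the pathway genes named. Signal over background stands for depth on arrays. All 18 probes were well above background in both channels of all 3 arrays. On each array 264 probes had 10 spots, and their log2 changes had a pooled SD of 0.230 (labelled decitabine), 0.0751 (labelled carboplatin) and 0.0769 (both drugs). These values are technical error within 1 array and hold no biological spread.

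A pair of limits touches these genes directly. In columns 1 to 9 of the array labelled decitabine, 10.1% of its spots, the median control signal was 174 units against 321 in the other columns, and the median log2 change was 0.75 against −0.02. The treated signal of those columns was 189 units on that array and 180 and 181 on the other arrays. Leaving these columns out brought the pooled SD of that array to 0.0776. The only HDAC2 probe (column 4), the brightest CBX5 probe (column 7) and 1 of the 10 HDAC1 spots (column 5) lie there, and they are given apart. The second limit concerns the array labels. The study names genes raised by carboplatin only for its top annotation categories, mitochondrion and apoptotic process. Of these 146 genes, 125 passed 1.5-fold upward on the array labelled decitabine, 19 on that labelled carboplatin and 56 with both drugs. Only 92 of the 146 have a probe outside columns 1 to 9, and of these 54, 15 and 52 rose. Of 53 genes named in the same way as lowered by carboplatin, 40, 4 and 37 fell in the same order, and 39, 4 and 37 without these columns. The study chose these lists on the same arrays, so that they are no independent evidence. Among 12 targets of p53, which DNA damage activates, 11, 4 and 11 rose, beside 10.6%, 2.76% and 7.47% of all genes, and 12, 5 and 12 without the columns. BBC3, GADD45A, TNFRSF10B and ZMAT3 of them are in the study's lists, and of the other 8 targets 8, 3 and 8 rose. By qPCR the study reports CBX5 mRNA lowered by carboplatin, with no dose stated beside that result. Its text gives a higher carboplatin dose for the arrays than the sample labels do. Several of its other assays in YB5 used that higher dose for 4 days. CBX5 A_24_P664995 (column 7), A_23_P2355 and A_24_P620621 had log2 changes of −0.67, 0.14 and 0.30 on the array labelled carboplatin. On that labelled decitabine they had 0.18, −0.35 and −0.44. The 2 single-drug arrays are therefore called throughout by their sample labels, and which drug each received was not tested. None of the 10 genes is in these study lists.

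The HP1 results turn on 6 probes, shown here by the first 30 of their 60 bases as printed in the scanner files, with no base in capitals since no part of a probe outweighs another. They were mapped by the files to GRCh37, all on the minus strand. The 3 CBX5 probes start 6637 to 15122 bases apart, so that each reads a different stretch of the gene, and A_24_P664995 is assigned to the transcript NM_001127322 and A_23_P2355 to NM_012117. Exon and UTR annotation of that build was not used here. Of the CBX1 probes, A_23_P107507 and A_24_P298174 overlap by 30 bases in their coordinates, and the third lies 5886 bases away. The longest run that the sequences of these overlapping probes share is 24 bases. No stretch longer than 7 bases is shared between a probe of one HP1 gene and a probe of another.
CBX5 A_24_P664995, chr12:54624825-54624854: taagcatttatgtgtttccataactgacat
CBX5 A_24_P620621, chr12:54631462-54631491: tggacttgcatgtttgagaaggcttccaac
CBX5 A_23_P2355, chr12:54639947-54639976: ctttgagagaggactggaaccagaaaagat
CBX1 A_24_P296568, chr17:46147517-46147546: cttgcatctagagctacgttgtaaaattct
CBX1 A_23_P107507, chr17:46153403-46153432: caagcgcaaagctgattctgattctgaaga
CBX1 A_24_P298174, chr17:46153433-46153462: agcacatgagatagacaaatcagagggagg

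CBX5 encodes HP1α, the HP1 protein most tied to constitutive heterochromatin and the one that the study measured further. On blots the study reports less HP1α protein after carboplatin, markedly so after the combination, and no effect on HP1β (CBX1) and HP1γ (CBX3). Only RNA was measured here. The 3 CBX5 probes did not give the same result on any single-drug array. The brightest, A_24_P664995 in column 7, had a log2 change of 0.18 on the array labelled decitabine, −0.67 on that labelled carboplatin and −1.22 on that of both drugs. Only the last 2 pass 1.5-fold, as falls to 0.630 and 0.430 of control. A_23_P2355, in column 44, had log2 changes of −0.35, 0.14 and −0.35 in the same order. A_24_P620621, in column 19, had log2 changes of −0.44, 0.30 and −0.33. Neither of these probes passed 1.5-fold on any array. They shared the sign on all 3 arrays, and with both drugs all 3 CBX5 probes were below 0.

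The CBX5 probe in column 7 lay above the other CBX5 probes on the array labelled decitabine and below them on the other 2 arrays. Its raw control signal was 1689 units there, 4438 on the carboplatin-labelled array and 3988 on that of both drugs. Its raw treated signal was 889, 1183 and 852 units. For A_23_P2355 the control signals were 1984, 1662 and 1568 units, and the treated signals 713, 807 and 637. For A_24_P620621 they were 559, 534 and 455 in the control channel and 209, 313 and 210 in the treated channel. Among the treated signals of each probe, the highest was on the array labelled carboplatin, and those on the other arrays lay below it.

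**Figure D1:**
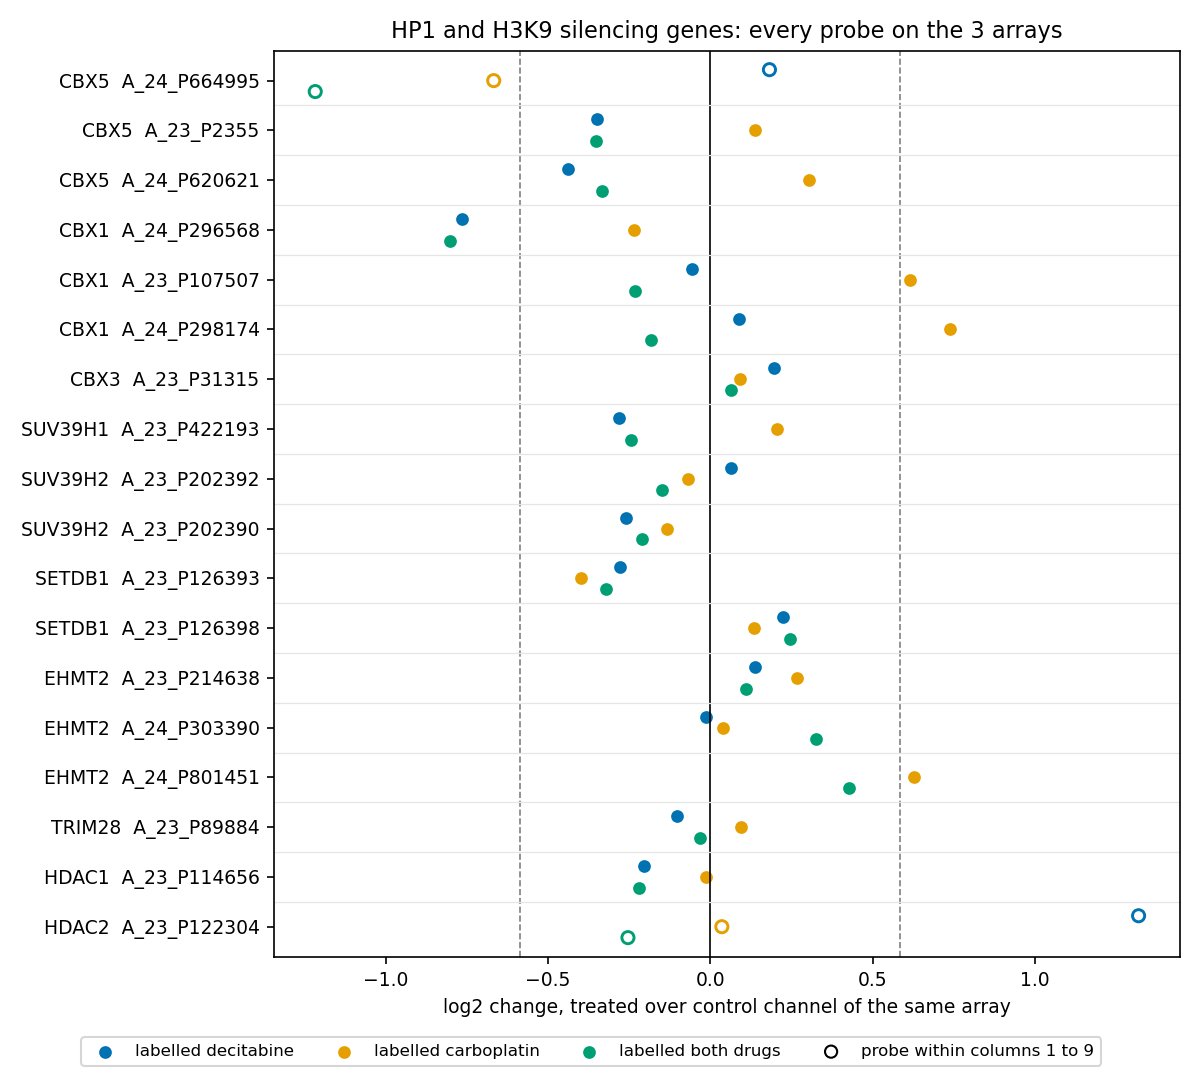
Log2 change (treated over control, x axis) of each of the 18 probes (y axis) on the arrays with labels decitabine (blue), carboplatin (orange) and both drugs (green), with open circles for probes within columns 1 to 9 and dashed lines at 1.5-fold. The HDAC2 probe and the first CBX5 probe, both open, reach 1.32 and −1.22, while CBX1 A_24_P296568 is the only filled symbol beyond the lower dashed line, at −0.76 and −0.80.

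CBX1 encodes HP1β, which also binds methylated H3K9 and is spread over both kinds of chromatin. Its brightest probe, A_24_P296568 in column 71, fell on the array labelled decitabine to 0.589 of control, a log2 change of −0.76. It fell on the array of both drugs to 0.573 of control, −0.80 on that scale, and stood at −0.23 on the array labelled carboplatin. The other 2 probes did not share these falls. A_23_P107507 had log2 changes of −0.06, 0.61 and −0.23, and A_24_P298174 of 0.09, 0.74 and −0.18. Both passed 1.5-fold upward on the array labelled carboplatin alone, so that CBX1 was called fallen, risen or neither by the choice of probe. The array labelled carboplatin nevertheless gave the highest value of each of the 3 probes. CBX3, which encodes HP1γ and is found mostly in euchromatin, has 1 probe (column 11) with log2 changes of 0.20, 0.09 and 0.06, none of them past 1.5-fold.

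Of the methyltransferases, none passed 1.5-fold by its brightest probe on any array. SUV39H1 had log2 changes of −0.28, 0.21 and −0.24 on the arrays with labels decitabine, carboplatin and both drugs, from control signals of 1087, 1038 and 916 units and treated signals of 421, 542 and 410. It shared with the CBX5 probes outside the edge a value below 0 on the first and last array and above 0 on the array labelled carboplatin. SUV39H2, the second SUV39 enzyme, had log2 changes of 0.06, −0.07 and −0.15 by its brighter probe and of −0.26, −0.13 and −0.21 by a dim one. SETDB1 showed opposite signs by probe, with −0.28, −0.40 and −0.32 for A_23_P126393 against 0.22, 0.13 and 0.24 for A_23_P126398, which starts 1103 bases away on chromosome 1. EHMT2 had log2 changes of 0.14, 0.27 and 0.11 by its brightest probe and −0.01, 0.04 and 0.32 by the next. The remaining EHMT2 probe, A_24_P801451, to which the files give no position, passed 1.5-fold upward on the array labelled carboplatin with 0.63 and had 0.43 with both drugs. Its spot on the array labelled decitabine was marked as an outlier by the scanner software and dropped.

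TRIM28 (KAP1), the co-repressor that carries SETDB1 and HP1 to their targets, had log2 changes of −0.10, 0.10 and −0.03. Its probe spans 152 bases of chromosome 19 and thus crosses at least 1 intron. The signals were high and even, with 18918, 19633 and 16188 units in the control channel and 7565, 8491 and 7495 in the treated channel.

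HDAC1 has the best measured value of the group, since its probe is spotted 10 times. The mean was −0.21 ± 0.028 (log2 change) on the decitabine-labelled array (SD, 9 spots, the tenth being the edge spot dropped as an outlier). It was −0.01 ± 0.057 on the array labelled carboplatin and −0.22 ± 0.059 on that of both drugs (SD, 10 spots each). The spots ranged from −0.24 to −0.16, from −0.09 to 0.07 and from −0.33 to −0.12 in that order. Those of the array labelled carboplatin did not overlap the other 2 arrays, which overlapped each other. How many of the 264 probes with 10 spots show the same was not counted, so that nothing particular to HDAC1 can be read from it. All HDAC1 spots were within 1.5-fold of control, and the spots of 1 array share its RNA. HDAC2, the partner of HDAC1 in most of its complexes, has 1 probe, which lies in column 4 and spans 679 bases of chromosome 6. Its log2 change was 1.32, 0.04 and −0.25, a rise to 2.49 times control on the array labelled decitabine. The raw control signal was 11836 units on that array and 32814 and 30057 on the others, while the raw treated signal was 12698, 13254 and 11555. There is no HDAC2 probe outside the edge columns.

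**Figure D2:**
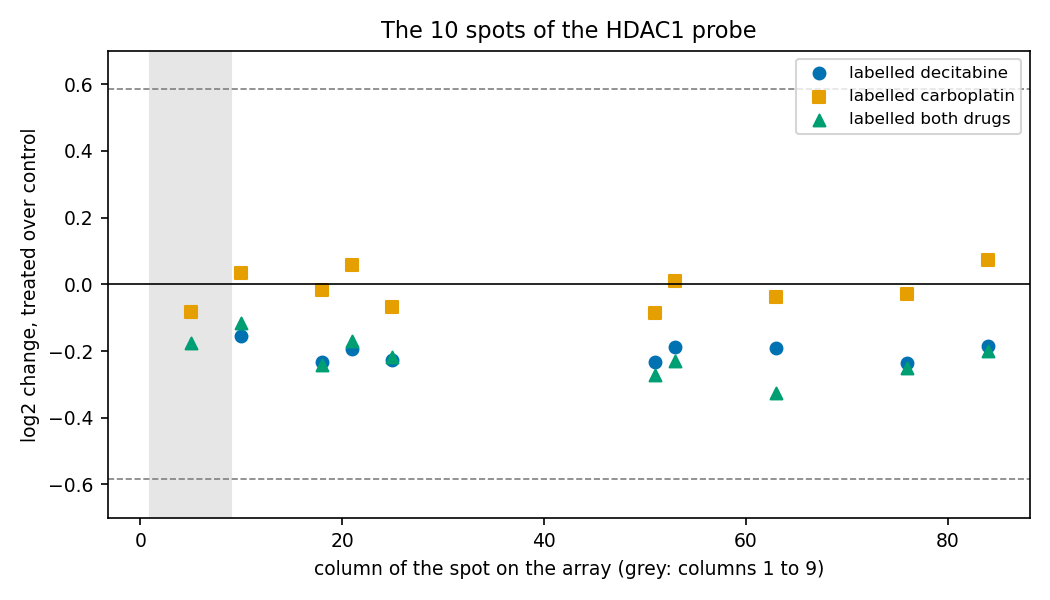
Log2 change (y axis) of the 10 HDAC1 spots by their column on the array (x axis), with circles, squares and triangles for the arrays with labels decitabine, carboplatin and both drugs, columns 1 to 9 in grey and dashed lines at 1.5-fold. Squares lie between −0.09 and 0.07, above all circles and triangles, and how often other probes with 10 spots show this was not counted.

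By the brightest probe, 1 of 10 genes rose (HDAC2) and 1 fell (CBX1) on the array labelled decitabine, where 10.6% of all genes rose and 4.67% fell. On the array labelled carboplatin 0 rose and 1 fell (CBX5), beside 2.76% and 1.49% of all genes. With both drugs 0 rose and 2 fell (CBX5 and CBX1), beside 7.47% and 5.93%. Without columns 1 to 9, 9 of the 10 genes remain. Then 0 rose and 1 fell (CBX1) on the array labelled decitabine, where 5.08% of all genes rose and 4.9% fell. On the array labelled carboplatin 0 rose and 0 fell, beside 2.74% and 1.43%. With both drugs 0 rose and 1 fell (CBX1), beside 7.39% and 5.82%. A single gene past the threshold among 9 or 10 is a share that these backgrounds do not set apart. Median log2 changes of the 9 genes were −0.20, 0.09 and −0.22 in the usual order, against −0.0014, −0.0041 and 0.0052 over 17457 genes, whose 10th to 90th percentiles were −0.39 to 0.38, −0.30 to 0.33 and −0.43 to 0.49.

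With all columns kept, the medians of the 10 genes under loess were −0.02, 0.01 and −0.23. Their size, and for the array labelled carboplatin the direction, depends on the normalization across brightness. With each array centred on its median in place of loess, the median of all genes moved by −0.14, −0.15 and −0.11, and 4478, 3554 and 3985 genes were called fallen against 1714, 1674 and 807 risen. Under loess 870, 278 and 1103 fell and 1971, 514 and 1390 rose, and in Agilent's processed signals 2190, 1166 and 1992 fell and 2124, 1412 and 2486 rose. The medians of the 10 genes were −0.58, −0.53 and −0.67 with median centring, so that by the brightest probe the positive values of CBX5, CBX3, SUV39H1, SUV39H2, EHMT2, TRIM28 and HDAC2 turned negative under it, with the exception of HDAC2 on the array labelled decitabine. Of the other probes, those above 0 on the array labelled carboplatin kept that sign for CBX1 A_23_P107507 (0.14), CBX1 A_24_P298174 (0.29), CBX5 A_24_P620621 (0.06) and EHMT2 A_24_P801451 (0.30, and 0.12 with both drugs), none of them past 1.5-fold. Every negative value of the 18 probes kept its sign under median centring.

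Because the control channel carried the edge defect, each channel was also compared between arrays on its own, after quantile normalization over the 3 arrays and without any ratio. This choice was made after seeing the data. In the treated channel all 3 CBX5 probes were lower on the array labelled decitabine than on that labelled carboplatin, by log2 differences of −0.53, −0.26 and −0.64 for A_24_P664995, A_23_P2355 and A_24_P620621. The 3 CBX1 probes differed by −0.48, −0.47 and −0.41 (A_24_P296568, A_23_P107507 and A_24_P298174). On the array of both drugs the differences from the array labelled carboplatin were −0.52, −0.38 and −0.63 for CBX5 and −0.57, −0.71 and −0.69 for CBX1. The pooled SD of repeated spots for such a difference was 0.110 and 0.0858 over the 264 probes outside the edge, smaller than each of these 12 differences. It is technical error within an array and holds no spread between samples. In the control channel the CBX5 probes differed between the arrays labelled decitabine and carboplatin by −1.33, 0.34 and 0.18, and the CBX1 probes by 0.18, 0.31 and 0.35. From the array labelled carboplatin, the control channel of both drugs differed by 0.03, 0.11 and −0.03 for CBX5 and by 0.03, 0.15 and 0.23 for CBX1. The pooled SDs of such control differences were 0.135 and 0.116. Both sets of treated-channel differences are taken from the same carboplatin-labelled array, so that a high value there lowers both. Between the treated channels of the arrays labelled decitabine and both drugs the CBX5 probes differed by 0.01, −0.12 and 0.0046. The CBX1 probes differed there by −0.09, −0.24 and −0.28, against a pooled SD of 0.0848. A constant offset of a probe cancels in such differences, so that they do not bear on why the probe in column 7 stood apart as a ratio.

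**Figure D3:**
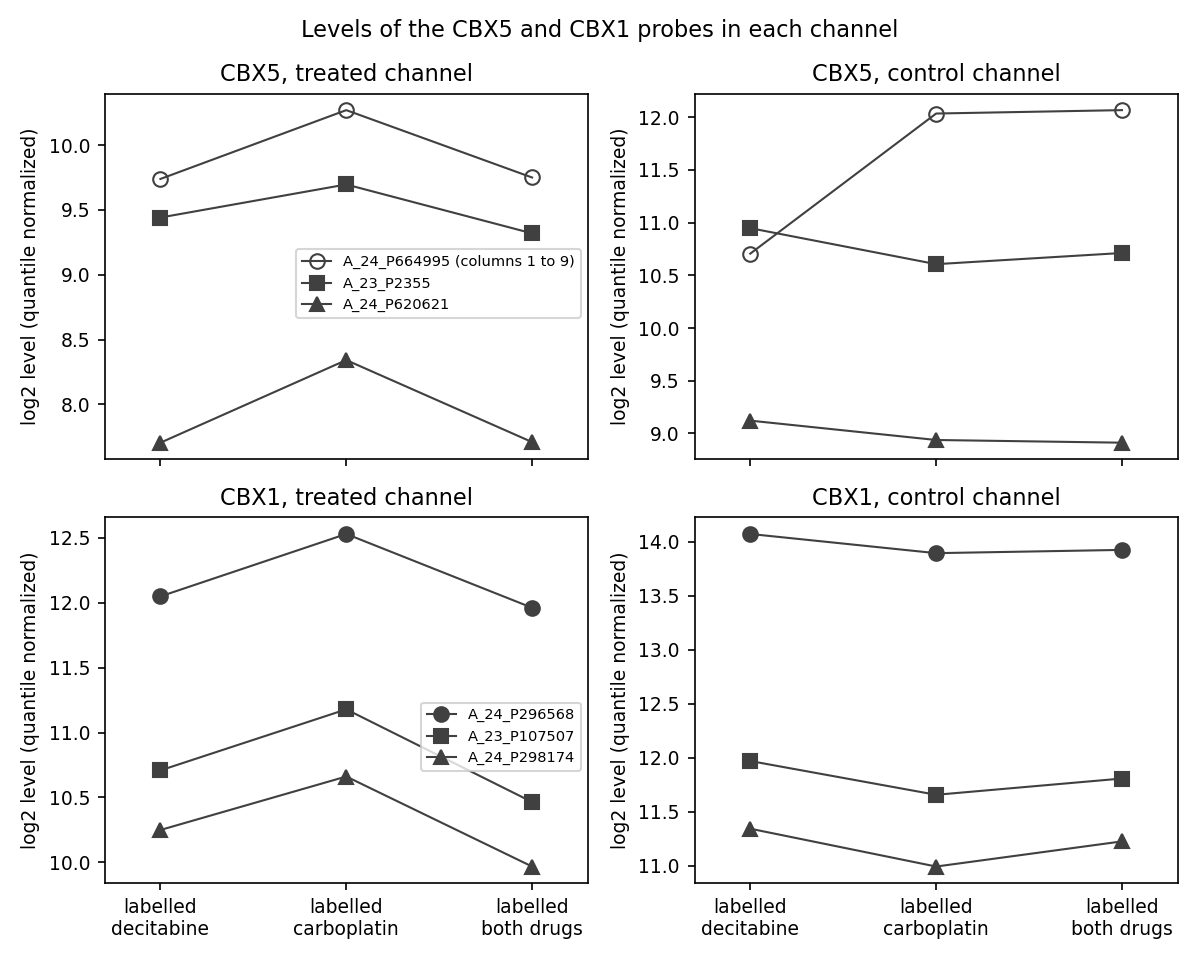
Quantile-normalized log2 level (y axis) of the 3 CBX5 probes (top) and the 3 CBX1 probes (bottom) in the treated (left) and control (right) channel of the arrays with labels decitabine, carboplatin and both drugs (x axis), with an open symbol for the probe in columns 1 to 9. All 6 treated lines peak on the array labelled carboplatin, and the open symbol drops to 10.71 in the control panel at the array labelled decitabine, against 12.03 and 12.07 on the others.

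The same reading over all 10 genes gave 7 below 0 on the array labelled decitabine against that labelled carboplatin, where 49.7% of all genes were below 0, and 8 below 0 on the array of both drugs, where 51.4% were. Both counts share the array labelled carboplatin and are not independent. In neither comparison did a brightest probe pass 1.5-fold, where 4.19% and 4.21% of all genes were past it upward and 4.38% and 3.74% downward. Of all member probes, 1 of 17 and 3 of 18 passed it downward. They were CBX5 A_24_P620621 in both comparisons and CBX1 A_23_P107507 and A_24_P298174 on the array of both drugs. Median differences of the 10 genes were −0.29 and −0.25, and all-gene SDs were 0.371 and 0.351, so that each of the 10 differences lay within 2 SD of all genes. By the brightest probe, SUV39H1 differed by −0.41 and −0.42, EHMT2 by −0.38 and −0.23 and SUV39H2 by 0.02 and −0.13. HDAC1 differed by −0.28 and −0.29, HDAC2 by −0.20 and −0.27 and TRIM28 by −0.30 and −0.24. CBX3 and the brighter SETDB1 probe differed by 0.13 and 0.05 and by 0.09 and 0.01. In the control channel HDAC2 and CBX5 A_24_P664995 differed by −1.43 and −1.33 between the arrays labelled decitabine and carboplatin, and genes in columns 1 to 9 by a median of −1.16. Outside these columns the all-gene median was 0.11, and the other 15 member probes measured lay between −0.16 and 0.35.

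**Figure D4:**
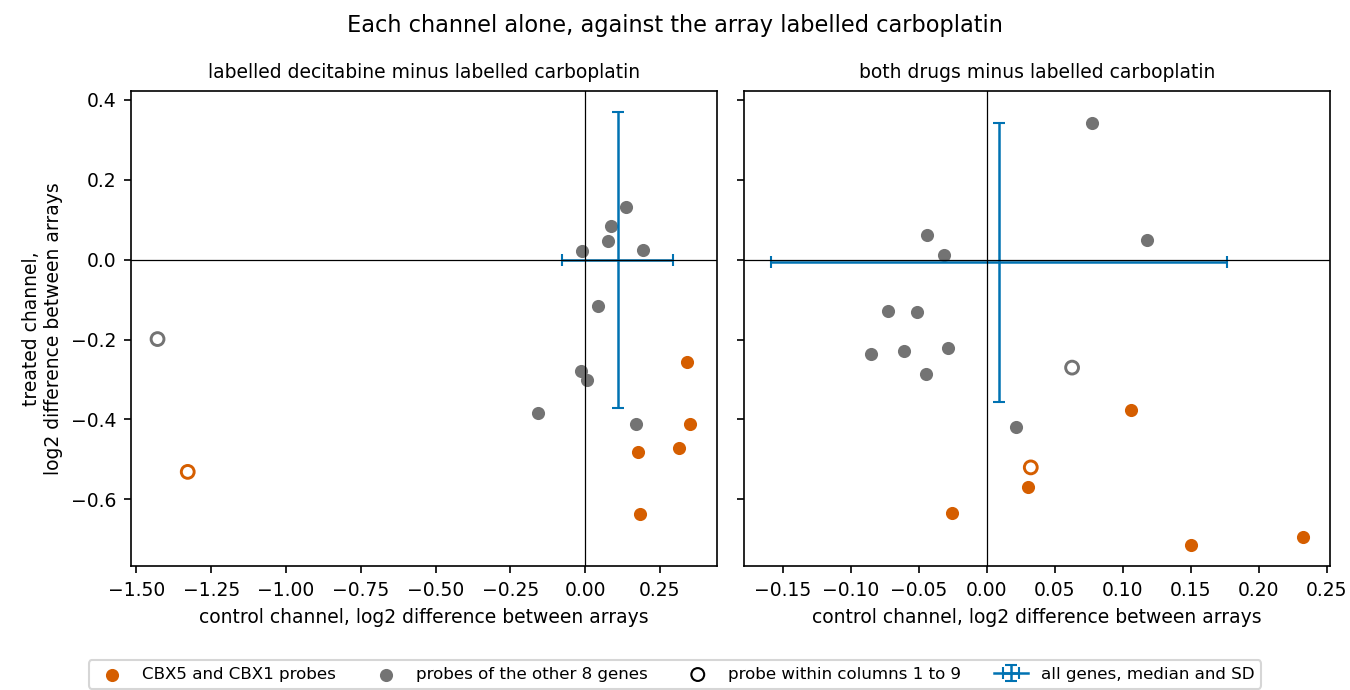
Log2 difference from the array labelled carboplatin in the treated channel (y axis) against that in the control channel (x axis), for the array labelled decitabine (left) and that of both drugs (right). CBX5 and CBX1 probes are in orange, probes of the other 8 genes in grey, probes within columns 1 to 9 open, and the blue cross gives the median and SD of all genes outside those columns. All 6 orange points lie between −0.71 and −0.26 on the y axis, and the 2 open points stand apart only in the left panel, at −1.33 and −1.43 on the x axis.

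The combination was set against the single drugs gene by gene. The log2 change with both drugs was below that on the array labelled carboplatin for 9 of 10 genes (8 of 9 without the edge columns), with SETDB1 as the exception, at 0.08. Over all genes 49.2% lay below 0. Against the array labelled decitabine, the change with both drugs had a median of −0.03 over the 9 genes outside the edge and ranged from −0.22 to 0.07, with 7 below 0 and none past 1.5-fold, where 49.4% of all genes lay below 0. Outside the edge, the largest differences from the array labelled carboplatin were −0.56 for CBX1, −0.48 for CBX5 A_23_P2355 and −0.44 for SUV39H1. Against the sum of the single-drug changes the 9 genes outside the edge had a median of −0.14, and ranged from −0.29 for EHMT2 to 0.36 for SETDB1, with 7 below 0, where 48.8% of all genes were. CBX5 stood at −0.14 and CBX1 at 0.20. None of the 9 was past 1.5-fold from that sum. A_24_P664995 and HDAC2 stood at −0.73 and −1.61 from it, and both sums contain the edge value.

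The rest of the pathway was taken from 6 lists, with 73 of 74 genes measured. They hold other H3K9 methyltransferases and their partners, the HUSH complex and MORC proteins, HP1 partners, other deacetylases, subunits of the NuRD, SIN3 and CoREST complexes, and H3K9 demethylases. Without the edge columns 2 of 70 rose and 8 fell on the array labelled decitabine, 1 rose and 0 fell on that labelled carboplatin, and 2 rose and 10 fell with both drugs. Of all genes 5.08% rose and 4.9% fell, 2.74% and 1.43%, and 7.39% and 5.82% in that order. These shares are the background for every later list count that leaves the edge columns out. The medians of the 70 were −0.09, 0.04 and −0.16. With the edge columns kept, 7 of 73 rose and 10 fell on the array labelled decitabine, beside 10.6% and 4.67% of all genes. On the array labelled carboplatin 1 rose and 0 fell, beside 2.76% and 1.49%. With both drugs 2 rose and 10 fell, beside 7.47% and 5.93%. The counts per list given next leave the edge columns out, and the log2 changes of single genes are those with all columns normalized together.

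Among 12 H3K9 methyltransferases and partners, 0 rose and 2, 0 and 3 fell, beside 4.9%, 1.43% and 5.82% of all genes fallen. UHRF1, which reads methylated H3K9 and hemimethylated DNA and brings DNMT1 to it, had log2 changes of −0.84, 0.31 and −0.78, and its second probe had −0.58, 0.46 and −0.36. MECOM, a PRDM family protein, had −0.68, −0.55 and −1.01 by the brightest of its 6 probes, which ranged from −1.31 to 0.08 with both drugs. KMT5B, which methylates lysine 20 of histone H4 downstream of HP1, had −0.53, −0.32 and −0.74, while its other 3 probes ranged from −0.05 to 0.19, from −0.10 to 0.27 and from −0.42 to 0.16, none past 1.5-fold. UHRF1 is on the study's list of genes lowered by carboplatin and is no independent support.

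Of 16 HP1 partners and chromatin assembly factors, 15 could be measured outside the edge, where 2, 0 and 2 fell and 0 rose. INCENP, the HP1-binding subunit of the chromosomal passenger complex, had log2 changes of −1.02, 0.08 and −0.44. LBR, the lamin B receptor that ties HP1 to the nuclear envelope, had −0.71, −0.40 and −0.68, and SENP7, a SUMO protease that acts on HP1α, had −0.59, −0.41 and −0.81, which its dim second probe (−0.13, −0.0030 and 0.01) did not share. CHAF1A, the large subunit of chromatin assembly factor 1, had −0.59, 0.15 and −0.45 and is also on the study's list. SENP7 and CHAF1A sit at the threshold on the array labelled decitabine. With the edge columns kept 4 genes of the list fell there, beside 4.67% of all genes. List medians without the edge were −0.33, 0.06 and −0.28. In the HUSH list of 6 genes, MPHOSPH8, which reads methylated H3K9, had −0.54, −0.37 and −0.60, and 0, 0 and 1 fell. Of its other probes, A_24_P287403 had −0.47, −0.29 and −0.60 and A_24_P188183 −0.05, 0.34 and −0.07.

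Of 11 other deacetylases, 1, 0 and 1 fell and 0 rose. HDAC6, the mainly cytoplasmic tubulin deacetylase, had log2 changes of −0.73, −0.08 and −0.65, with −0.66, −0.13 and −0.51 by its second probe. Of 17 complex subunits outside the edge, 2, 1 and 2 rose and 2, 0 and 3 fell. SIN3B, a scaffold of the SIN3 complex, was past 1.5-fold upward on all 3 arrays with 0.64, 0.88 and 1.05. MTA2, a NuRD subunit, had 2.20, 0.32 and 0.81. Its single probe lies in column 10, next to the edge, and its raw control signal was 1444 units on the decitabine-labelled array and 4086 and 3513 on the others. SAP30 and MTA3, of the SIN3 and NuRD complexes, had −0.68, −0.29 and −0.77 and −0.64, −0.58 and −0.69, but the second MTA3 probe had 0.11, 0.05 and 0.01. Of 9 demethylases outside the edge, 1, 0 and 0 fell and 0 rose, PHF2 having −0.61, −0.21 and −0.46 by its brightest probe. Its other 3 probes ranged from −0.28 to 0.0014, from −0.19 to 0.06 and from −0.28 to −0.04. Of 10 genes of DNA methylation and methyl-CpG reading, 2, 0 and 1 fell and 0 rose, namely the methyl-CpG binders ZBTB38 with −0.79, −0.43 and −0.74 and ZBTB33 with −0.71, −0.28 and −0.24. Their other probes did not share the falls, with −0.15, 0.45 and 0.08 for ZBTB38 A_23_P212025, 0.93, 0.19 and 0.05 for a ZBTB38 probe in column 8, and 0.14, 0.27 and 0.12 for a dim ZBTB33 probe.

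**Figure D5:**
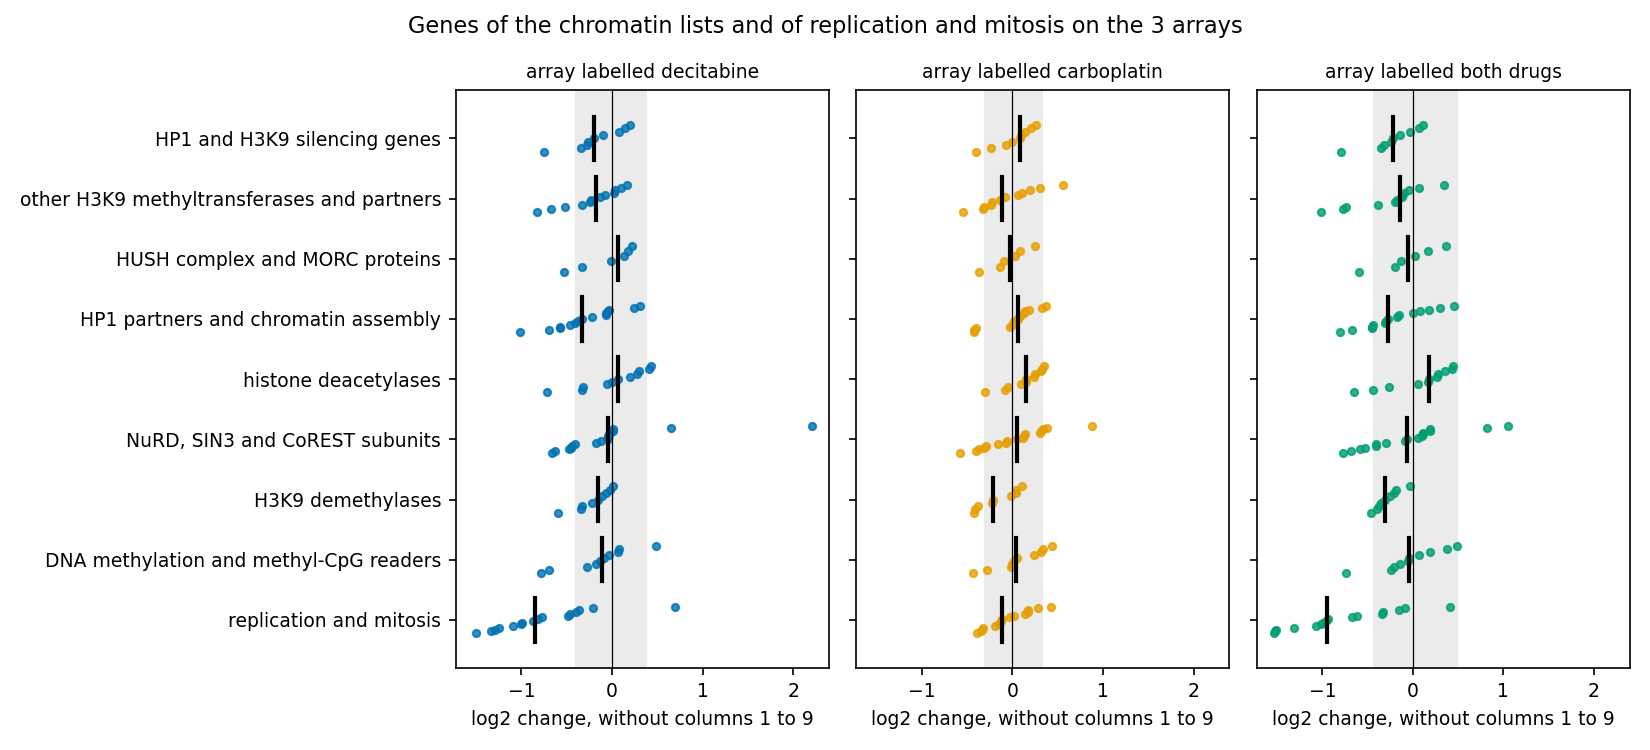
Log2 change without columns 1 to 9 (x axis, 1 scale for the 3 panels) of the genes in each list (y axis) on the arrays with labels decitabine, carboplatin and both drugs, with points for genes, black bars for list medians and grey bands from the 10th to the 90th percentile of all genes. The replication and mitosis list has medians of −0.85, −0.12 and −0.95, and the HP1 and H3K9 silencing genes of −0.20, 0.09 and −0.22.

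Genes of replication and mitosis fell in number on 2 of the 3 arrays. Without the edge columns 10 of 16 fell and 1 rose on the decitabine-labelled array, 0 and 0 on that labelled carboplatin, and 11 fell and 0 rose with both drugs, where 4.9%, 1.43% and 5.82% of all genes fell and 5.08%, 2.74% and 7.39% rose. The kinase PLK1 had log2 changes of −1.51, −0.33 and −1.54, the checkpoint kinase BUB1 −1.30, −0.18 and −1.53, cyclin B1 (CCNB1) −1.35, −0.39 and −1.52, and CDC20, which activates the anaphase-promoting complex, −1.001, −0.13 and −1.31. BUB1, CDC20, CCNA2 and TOP2A are on the study's list of lowered genes, and of the other 12 genes outside the edge 6, 0 and 7 fell. A smaller share of dividing cells and less RNA per cell cannot be told apart in such bulk RNA, and the part of either in the values of CBX5 and CBX1 was not tested. By flow cytometry the study reports a larger share of YB5 cells in the G2 and M phases after carboplatin, alone or with decitabine. Its carboplatin dose there was higher than that of the array labels. The part of this shift in the values given here was not tested. Among p53 targets GDF15 had log2 changes of 4.96, 1.65 and 5.13, MDM2, the ligase that limits p53, 3.34, 0.63 and 3.25, and the antiproliferative gene BTG2 2.20, 0.33 and 1.78. ZMAT3, on the study's list of raised genes, had 2.22, 0.66 and 2.05.

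The genes most like CBX5 were sought by Euclidean distance of the 3 log2 changes among 11622 genes well above background. For A_24_P664995 the nearest were BLID, TMEM80, SPTSSB, NOTCH4 and RPS27, at distances of 0.27 to 0.66. For A_23_P2355 they were BTD, LRRCC1, CTSO, CLIC1 and LRR1, at 0.02 to 0.05. The lists share no gene. A distance over 3 arrays holds little, since 542 genes lay as near to A_23_P2355 as the spot error.

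Promoters of 9 of the 10 genes, all but TRIM28, were matched in the RefSeq table (GRCh38.p14), with 13 entries of 300 bases, from 250 before to 50 after a start. CBX5 has 3 of them. The E2F letters TTTCCCGC, TTTGGCGC, TTTGCCGC and TTTCGCGC were found on either strand in 1 of the 13, that of CBX3, and in 3.31% of 35116 promoters. The CHR element TTTGAA was in 1 (SUV39H2) against 15.2% of all, and CCAAT in 5 (3 of CBX5, with HDAC1 and SUV39H1) against 34.6%. These are matches of letters and say nothing of the factors.

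As a check of the labelled cell type, all of EPCAM, CDH1, KRT8, KRT18, KRT19, CDX2 and VIL1 were well above background in the control channel of all 3 arrays. KRT20 was so on 1 array and LGALS4 on 2. Among 8 markers of other cell types, PTPRC, COL1A2, DCN, PECAM1 and CDH5 were not well above background in any control channel, while CD3E, CD68 and COL1A1 were in all 3. Marker changes differed from gene to gene. COL1A1, a fibroblast collagen, had log2 changes of −0.40, 0.29 and −0.29, near those of CBX5 A_24_P620621. E-cadherin (CDH1), whose probe has spots in and outside the edge columns, had −0.89, 0.04 and −0.85, falling past 1.5-fold on the arrays where CBX1 A_24_P296568 did, and −0.88, 0.02 and −0.86 without the edge columns. VIL1 and CDX2 were also highest on the array labelled carboplatin, but KRT18, KRT19, LGALS4 and CD68 were highest on that of both drugs. LGALS4 had log2 changes of 0.25, 0.28 and 0.35. Likeness of single markers to HP1 probes over 3 arrays holds little. COL1A1, CDH1, CDX2, EPCAM, KRT8 and LGALS4 are named after their values were seen. The part of these markers in the HP1 values was not tested. KRT18 had log2 changes of 0.83, 0.50 and 1.14, KRT19 −0.01, 0.71 and 0.85, VIL1 −0.88, 1.87 and 0.19, CDX2 −0.03, 0.32 and −0.05, and CD68 0.99, 0.40 and 1.53. KRT8 had 0.73, 0.55 and 0.79 without the edge columns, and EPCAM, with no probe outside them, 1.33, −0.44 and −0.14. For DCN the treated signal was well above background on the array labelled carboplatin alone, so that no change is given. Of the genes whose RNA or protein served the study as a reference, GAPDH had −0.11, 0.03 and −0.12. ACTB had −0.84, −0.53 and −1.01 by its brightest probe and between −0.21 and 0.28 by 2 others outside the edge.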

How the data were processed

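The authors deposited 3 Agilent scanner files (43376 gene spots each) and 1 table of processed values. Spot intensity in the deposited scanner files is the mean and median pixel signal with local background, read by Feature Extraction 9.5.3.1 per the file headers, while the labels name 8.5.1.1. Their log ratio, deposited as log10 of red over green, was converted to log2 with its sign reversed. The authors' table holds log2 ratios, loess normalized with limma and agilp per the labels and rounded. Its background step and direction are not stated, and its column medians were −0.01, 0 and −0.01. Its correlation with the scanner's log2 of treated over control was 0.79, 0.68 and 0.80, which set its direction.

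Here mean signals were corrected by normexp (offset 50) against the median background and normalized by loess within each array (limma 3.58.1, R 4.3.3). The offset draws the changes of dim probes toward 0. Outlier spots (276, 111 and 89, in the order decitabine, carboplatin and both drugs of the labels) and control spots were left out, spots of a probe were averaged, and 29381 of 41000 probes matched a RefSeq gene by accession or symbol. Single channels were normexp corrected and quantile normalized. The steps were tested on simulated data with 200 changed probes. The medians of the raw control signal were 297, 315 and 282 units, with 69.0, 70.3 and 68.2% of spots well above background, and of the treated signal 166, 163 and 167, with 65.8, 68.4 and 68.5%. Their number limits the precision of arrays.

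All 10 genes are named, with up to 4 genes per list past 1.5-fold, by the largest change, whose brightest probe lay outside columns 1 to 9 and was well above background in at least 1 channel. Markers named outside this rule are marked as such. The members and lists were chosen with earlier results of these data known. Alternatives were processed signals, median signals, median centring, the scanner log ratio, the authors' values, outlier spots kept, columns 1 to 9 left out, all probes averaged, dim probes left out, 2-fold in place of 1.5-fold and, added after seeing the data, other control channels. KDM4B was not found among the gene names.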

Additional observations from a re-analysis of the deposited data

How the results depend on the processing

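Limits come first. With 1 array per treatment no value has a biological error, the dyes were not exchanged, and precision is bounded by spot error and, for HDAC2, by 1 probe in the defective columns. No paired analysis was possible because each treatment has 1 array and no test was run. Leaving out a replicate was not possible for the same reason.

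The CBX5 change on the array labelled decitabine, 0.18, was −0.57 in processed signals, −0.30 with median centring, −0.60 by the scanner log ratio, −0.88 in the authors' values, −0.34 without columns 1 to 9 and −0.20 over all its probes. It was −0.73 against the control level averaged over the 3 arrays and −1.19 against that of the arrays labelled carboplatin and both drugs, both added after seeing the data, where the other CBX5 probes had −0.35 and −0.44 against their own control. On the array labelled carboplatin, −0.67 became −1.13 with median centring, −0.32 in the authors' values, 0.13 without columns 1 to 9 (the sign turned, another probe standing for the gene), −0.0746 over all probes and −0.23 against the averaged control. With both drugs, −1.22 became −1.65, −0.85, −0.35, −0.63 and −0.74 under the same 5 alternatives. HDAC2 on the array labelled decitabine, 1.32, turned to −0.13 in processed signals and in the scanner log ratio and to −0.14 against the control of the other arrays. The last replaces the control signal of the edge spots by construction, and for the other 2 the cause was not tested.

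Members risen on the array labelled decitabine, 1, became 0 in processed signals, by the scanner log ratio, in the authors' values, without columns 1 to 9 and against either other control. All genes risen there were 1971 of 18611 in the main setting. Under these alternatives they were 2124, 2097, 1175 of 18615, 887 of 17457, and 1435 and 1225, in that order. Members fallen there, 1, became 5 with median centring, 2 by the scanner log ratio, in the authors' values and against either other control, and 0 over all probes or at 2-fold. All genes fallen there went from 870 to 4478 with median centring, 2119 by the scanner log ratio and 1156 in the authors' values. They were 747 and 791 against the other controls and 584 over all probes. No all-gene count is given for 2-fold. On the array labelled carboplatin 1 fallen became 4 with median centring and 0 in the authors' values, without columns 1 to 9, over all probes, against the averaged control and at 2-fold. All genes fallen there went from 278 to 3554 with median centring. They were 528, 250 of 17457, 152 and 339 under the next 4 alternatives. With both drugs 2 fallen became 5 with median centring and 1 without columns 1 to 9, over all probes and at 2-fold. All genes fallen went from 1103 to 3985 with median centring, 1016 of 17457 without the columns and 793 over all probes. Of the 6 pathway lists, 7 risen on the array labelled decitabine became 2 in the authors' values and without columns 1 to 9, and 10 fallen became 37 with median centring. The all-gene counts just given are the background of these list counts too. On the array labelled carboplatin 1 risen became 0 with median centring and 2 in the authors' values, and 0 fallen became 24 and 2. All genes risen there went from 514 to 1674 and 741 under these alternatives. With both drugs 2 risen became 1 and 10 fallen became 33 with median centring, where all genes risen went from 1390 to 807. The cause was not tested. The other 73 comparisons of these results stayed on their side of the threshold or within 1.5 times, and so did 236 for single members other than CBX5, while 55 moved by more than the spot error without turning a called sign. Called or not, signs of the 27 values of these members turned for 10 with median centring and 5 in the authors' values. They turned for 3 each in processed signals, by the scanner log ratio and against the control of the other arrays. Over all probes and against the averaged control 2 each turned. CBX1 on the array labelled carboplatin went from −0.23 to 0.37 over all probes.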

Other observations

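The authors' table sits closer to a ratio against a shared control level than to the ratio within each array. Over all probes its Pearson correlation across probes, which are not independent replicates, was 0.954, 0.962 and 0.981 with the treated level minus the mean control level of the 3 arrays (arrays labelled decitabine, carboplatin and both drugs). With the change against the array's own control channel it was 0.867, 0.838 and 0.936. The median absolute difference was 0.101, 0.0533 and 0.0600 against the shared level and 0.0786, 0.0867 and 0.0910 against the own channel, so that on the array labelled decitabine the 2 measures rank the ratios in opposite order. In columns 1 to 9 of that array it was 0.128 against 0.487. How the table was made was not tested further. In it the CBX5 probe in column 7 has −0.88, −0.32 and −0.85 and HDAC2 0.23, 0.45 and 0.20, and the EHMT2 probe A_24_P801451, whose spot was an outlier on the array labelled decitabine, has 5.80, −1.06 and −1.35.

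The CBX1 probes keep their order on every array. A_24_P296568 had a log2 change of −0.76, −0.23 and −0.80 and A_23_P107507 of −0.06, 0.61 and −0.23, so that the first lay below the second throughout. The SETDB1 probes likewise keep a gap, with −0.28, −0.40 and −0.32 for A_23_P126393 and 0.22, 0.13 and 0.24 for A_23_P126398. Over all genes with more than 1 probe, the share whose probes all had the same sign was 57.1, 51.8 and 62.0%, and 0, 2 and 4 of the 5 members with more than 1 probe were such genes. Without columns 1 to 9 the share was 60.4, 52.1 and 62.4%, and the members 1, 3 and 4. Without a dye exchange, a preference of a probe for a dye and a difference between transcripts cannot be told apart.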
